A study of Mus musculus with 6 samples.

Results

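The transcripts described here are the abundant ones of cultured mouse B cell progenitors, and the measure is how far each was recovered by an anti-FLAG immunoprecipitation (IP) of LIN28B beyond its recovery from cells without the tagged protein. They were selected on the inputs alone, as the genes at 50 FPKM or more (a fragment count scaled by model length and library total, so a level per length) in each of the 3 inputs, with no condition on the IPs. This gave 2045 of the 54752 genes of the deposited values. The ratio of a mouse was log2((IP + 1)/(input + 1)), and the difference was the mean ratio of both tet-LIN28B mice minus that of the control. The study profiled 2 tet-LIN28B mice and 1 littermate control, each as input and IP, so 6 libraries in all. The tet-LIN28B mice carry a FLAG-tagged human LIN28B cDNA under a tet-responsive promoter at the Col1a locus (Col1a tetO-LIN28B) together with the reverse transactivator at Rosa26 (Rosa26 rtTA m2), and the control carries the transactivator without the transgene. Adult mice were not induced in life. Their bone marrow, freed of red cells and of adherent cells, was cultured in IL-7 (20 ng/mL) with doxycycline (Dox) over 5 days for all 3 mice, so the control received Dox as well. The cultures were not sorted, the transgene is not limited to B cells, and the single control leaves the spread between controls unmeasured.

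LIN28B is a fetal RNA-binding protein with a cold shock domain and zinc knuckles, known for binding GGAG-containing loops of let-7 precursors and for contacting many mRNAs. In RNA immunoprecipitation the protein is pulled down with the RNA attached to it, and RNA that sticks to beads or antibody comes along. An IP from cells without the tag measures that background. An FPKM value is a share of its library, so a transcript that takes less of the IP than of the input is low relative to the others, and its absolute recovery is not measured.

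The FPKM of a library summed to between 1144868 in the control IP and 1384941 in the control input, and the 2045 transcripts held 86.2% to 90.1% of each sum. No counts come with these values, so the depth is unknown. All 13 markers of B cell progenitors were above 1 FPKM in at least 1 input, and their summed level was 11379 to 14486 FPKM in the 3 inputs. The 10 myeloid markers summed to 8029 and 5131 FPKM in both tet-LIN28B inputs and to 6853 FPKM in the control input. In the IPs they summed to 2662 and 1831 FPKM, and to 3099 FPKM in the control. T cell, NK cell, erythroid and stromal markers had no transcript among the 2045. However, 2 T cell receptor constant genes that were not among the markers belonged to the 2045, with a median input of 229 FPKM. In such mixed cultures, fewer cells of a type and less RNA per cell cannot be told apart.

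Low recovery was the commoner and the deeper departure from the control. Of the 2045 transcripts, 613 (29.98%) had a lower ratio with tet-LIN28B than without it and 217 (10.6%) a higher one at an adjusted p under 0.05 (limma, Benjamini-Hochberg over the 11481 genes fitted). Over all 11481 genes fitted, 19.8% were lower and 4.47% higher. The difference was -1 or less on the log2 scale for 617 transcripts and 1 or more for 207. It was -3 or less for 81 and 3 or more for 0. Both mice lay on the same side of the control for all 613 and all 217, which a call all but requires. The median difference was -0.35 over the 2045 transcripts and -0.40 over all genes fitted, so the shift of the whole is not particular to abundant transcripts. Of all calls 26.1% were higher, and 42.5% after each mouse was centred on its median, when 387 were lower and 286 higher. Without the mouse as a block 199 were lower and 42 higher, and with the mean of the 3 inputs under every IP limma called 0 in either direction, with 679 lower and 225 higher at an unadjusted p under 0.05.

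A lower difference mostly meant a transcript that was depleted in the LIN28B IP and nearer to its input in the control. Of the 613 lower transcripts, 606 had a ratio below 0 in both tet-LIN28B mice. The control ratio lay between -0.5 and 0.5 for 362 of the 613, a share not counted over all 2045. The control was itself lower here, with a median ratio of -0.34 over the 613 against -0.19 over all 2045. For 15 of the 613 the control ratio was 1 or more, against 38 of all 2045, so the control IP was itself rich in them. Cyclin D2 (Ccnd2), a G1 cyclin, is such a case, with log2 ratios of -1.27 and -0.93 for tet-LIN28B and of 1.51 in the control. A transcript was counted as excluded when its log2 ratio was -1 or less in both tet-LIN28B mice and at least 1 below the control in both. This is a count by size with no test, and it took 482 of the 2045 (23.6%), against 14.4% of all genes fitted. At 2 in place of 1 it took 179, at 3 it took 47 and at 4 it took 4. The mirror image, a ratio of 1 or more and at least 1 above the control in both mice, held for 123, at 2 for 9 and at 3 for 0. In the control 76 transcripts had a ratio of -1 or less and 6 of -2 or less. Mouse 1 had the lower ratio of the pair for 379 of the 482 excluded transcripts and for 1164 of all 2045. For 566 of the 613 the log2 difference of the inputs was within 0.5. The same count was not made over all 2045, and the part of the inputs in the differences was not tested.

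**Figure D1:**
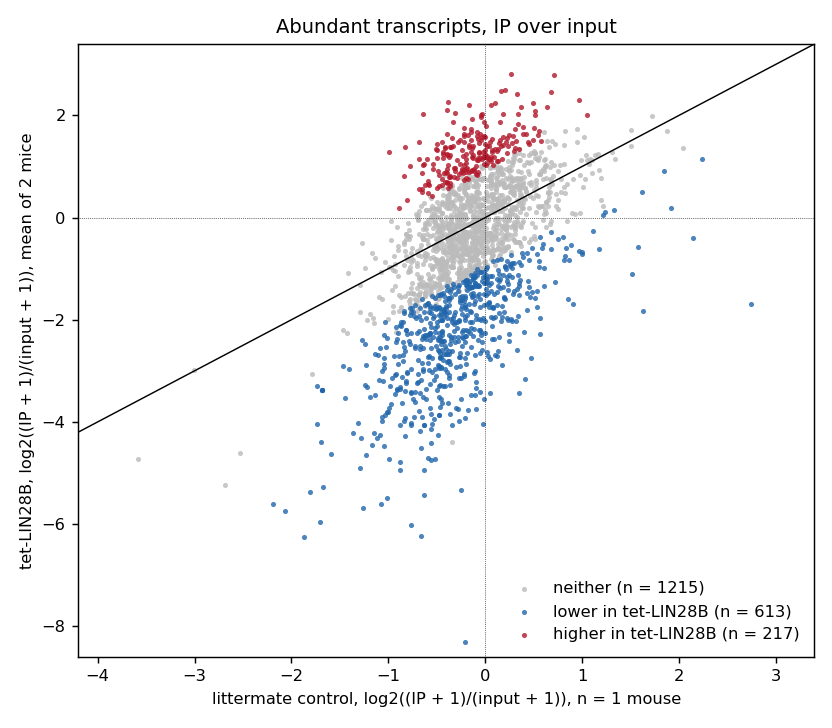
Log2((IP + 1)/(input + 1)) of the 2045 abundant transcripts in the control (horizontal, n = 1 mouse) and in tet-LIN28B mice (vertical, mean of 2 mice), with the diagonal as equality and colour for the limma call. The 613 lower transcripts reach down to a mean ratio of -8.31, while the 217 higher ones end at 2.81.

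A limit of 50 FPKM on the tet-LIN28B IPs, on top of that on the inputs, takes away most of the excluded transcripts. It removed 603 of the 2045 and left 1442. Of the 603, 391 were lower than the control and 0 higher. In the control IP 523 of the 603 were at 50 FPKM or more. The other 80 (13.3%) were under it there, against 106 of all 2045 (5.18%). Of the 482 excluded transcripts 324 were among the 603, and of the 613 lower transcripts 391. In the remaining 1442 the calls were balanced, at 222 lower and 217 higher, and the median difference was 0.07. Because such a limit uses the IP itself, these are descriptions. The removed transcripts were not all scarce, since 236 of them had a mean input of 100 FPKM or more. At the low end, 10 of the 2045 were listed at 0 FPKM in 1 of the tet-LIN28B IPs. None was at 0 in both, and 0 were at 0 in the control IP.

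**Figure D2:**
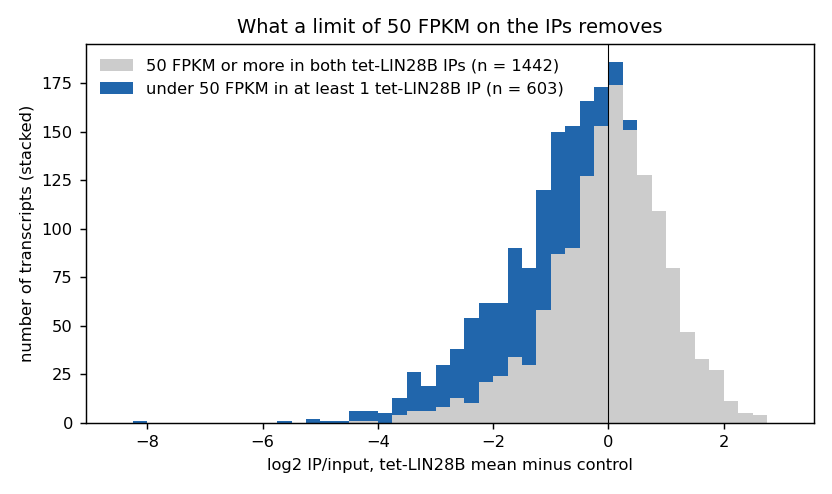
Difference in log2 IP/input (tet-LIN28B mean minus control, horizontal, bins of 0.25) for the 2045 abundant transcripts, with stacked bars for the 1442 at 50 FPKM or more in both tet-LIN28B IPs and the 603 below it in at least 1. The left side of the distribution is largely made of the 603.

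Among the removed transcripts of highest input were mRNAs of everyday cell functions. Sh3bgrl3, which encodes a small thioredoxin-fold protein, was at 1379 and 1840 FPKM in both tet-LIN28B inputs and fell to 44.3 and 105 FPKM in their IPs. In the control it was at 2297 FPKM in the input and 1449 FPKM in the IP. Its 3 ratios were thus -4.93, -4.11 and -0.66 in the same order, and the groups were far apart (difference -3.86, standard error 0.38, limma adjusted p = 8.67e-05). Dynlt1b, a dynein light chain, had ratios of -4.86 and -4.06 against -1.17. Atp5g1, which encodes the c subunit of ATP synthase, went from 870.2 and 1136 FPKM in the inputs to 12.7 and 35.02 FPKM in the IPs. Its control IP held 575 FPKM against an input of 1164 FPKM. The difference of -4.47 (standard error 0.40, adjusted p = 5.84e-05) was the lowest of 42 nuclear transcripts of complexes II to V. Gm10039, a processed pseudogene on chromosome 11, shares 92.5% of its 50-base windows with Atp5g1, and reads of both may have been split between them. Summed, the pair had ratios of -6.07 and -5.10 for tet-LIN28B and of -0.99 in the control.

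The lowest differences of all belonged to noncoding RNAs, to copies of other genes and to a few short mRNAs. Of the 15 lowest, Rn7s1, Snhg9, Gm5616, Mpc1-ps, Gm10925, Gm4739 and Fcer1g lost their call in a fit robust to outlying genes. They also lost it without the mouse as a block. Rn7s1 and Rn7s2, both copies of 7SL, the RNA of the signal recognition particle, lie on chromosome 12 and share all of their 50-base windows. Alone, Rn7s1 was at 10622 and 5515 FPKM in both tet-LIN28B inputs and at 0.84 and 313 FPKM in the IPs, so both mice differed by far more here than elsewhere. As a sum, both copies had ratios of -6.12 and -4.15 for tet-LIN28B and of -0.89 in the control, and the disagreement between the mice shrank. Rpph1, the RNA of the tRNA-processing enzyme RNase P, was at 2162 and 1882 FPKM in both tet-LIN28B inputs and at 43.7 and 33.4 FPKM in the IPs. In the control it was at 754 FPKM and 315 FPKM. Its input was thus higher in both tet-LIN28B mice too, by 1.42 on the log2 scale, which adds to the difference of -4.43. Snhg9, a snoRNA host gene annotated as antisense, had ratios of -3.82 and -6.84 against -0.25, and the libraries carry no strand. AC102496.1, a lincRNA, differed in kind, since its control IP held 744 FPKM against an input of 110.2 FPKM.

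Processed pseudogenes made up 4 of the 15 lowest, and they need not follow their parent gene. Gm5616 shares 84.2% of its windows with Snu13, Mpc1-ps 85.4% with Mpc1, and Gm4739 86.6% with Hmgb2. Their differences were -5.25, -4.32 and -4.21. Those of the parent genes were -0.25 for Snu13 (adjusted p = 0.613, and 0.10 after centring), -2.15 for Mpc1 and -0.38 for Hmgb2 (adjusted p = 0.442). Gm4739 had ratios of -6.16 and -3.29 against -0.52, with mouse 1 clearly below mouse 2. Of 71 processed pseudogenes 31 were lower and 9 higher, and their median difference was -0.84, but their values depend on how reads were divided between copies. Iglv1, an immunoglobulin lambda variable gene, was at 476 and 656 FPKM in both tet-LIN28B inputs and at 5.93 and 23.4 FPKM in the IPs. Its control values were 1188 and 765 FPKM. Ifitm2, an interferon-inducible membrane protein, had ratios of -5.17 and -4.33 against -0.56. Fcer1g, a signalling chain of Fc receptors used by myeloid and NK cells, had ratios of -5.69 and -3.74 against -0.59.

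**Figure D3:**
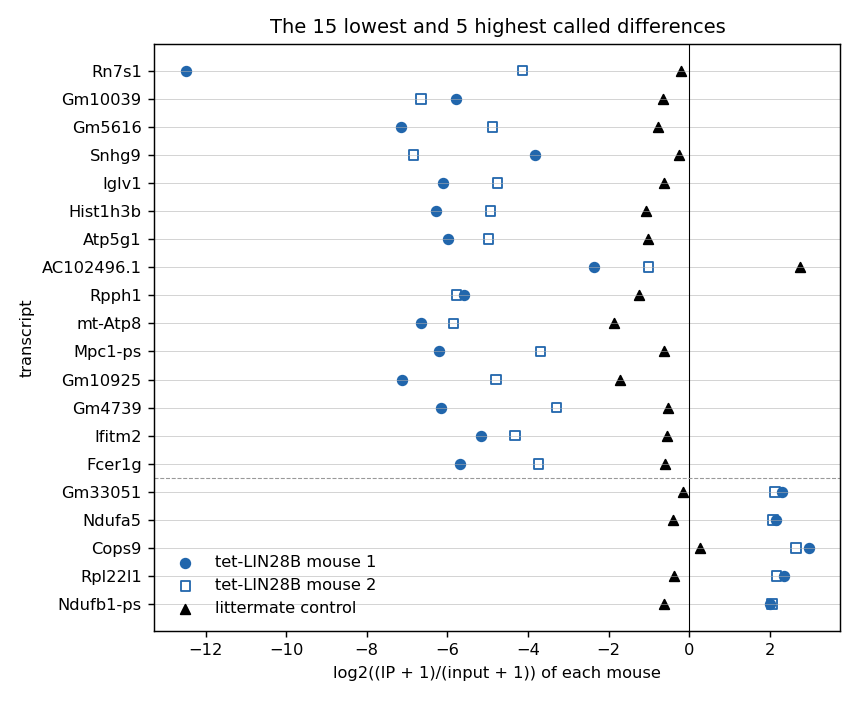
Log2((IP + 1)/(input + 1)) of each mouse (horizontal) for the 15 lowest and the 5 highest called differences, with tet-LIN28B mice in blue and the control as triangles. Both tet-LIN28B mice lie below the control in the upper 15 and above it in the lower 5, as their selection required. Rn7s1 shows the widest gap between the mice, from -12.50 to -4.13.

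Base composition went along with exclusion. The third position of a codon can often be changed without changing the protein, so its GC content (GC3) varies between genes of like function. Over the 1831 abundant mRNAs with a complete annotated coding sequence, 180 of the 366 with the highest GC3 (69.2% or more) were lower than the control and 12 higher. Of the 367 with the lowest GC3 (47.8% or less), 50 were lower and 67 higher. The median difference was -0.98 in the first of these groups and 0.17 in the other. The median control ratios of these groups were -0.16 and -0.21. The 3 coding sequences below (GENCODE M21, GRCm38, sense strand) show an excluded mRNA of high GC3 and exceptions in both directions, with every G or C at the third position of a codon in capitals. Sh3bgrl3 is excluded and GC3-rich, at 75.5%. Timm10, a chaperone of mitochondrial import, was higher than the control at a GC3 of 74.7%. mt-Atp8, translated inside mitochondria, was excluded at 20.6%.
Sh3bgrl3 (chr4:134127406-134128789, minus strand): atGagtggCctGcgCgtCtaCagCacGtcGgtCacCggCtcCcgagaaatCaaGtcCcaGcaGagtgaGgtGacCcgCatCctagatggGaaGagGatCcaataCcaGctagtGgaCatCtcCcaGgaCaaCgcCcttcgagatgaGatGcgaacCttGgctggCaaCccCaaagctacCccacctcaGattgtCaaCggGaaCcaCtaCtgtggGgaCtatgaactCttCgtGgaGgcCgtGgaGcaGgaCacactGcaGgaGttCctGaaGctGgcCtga
Timm10 (chr2:84826997-84830213, plus strand): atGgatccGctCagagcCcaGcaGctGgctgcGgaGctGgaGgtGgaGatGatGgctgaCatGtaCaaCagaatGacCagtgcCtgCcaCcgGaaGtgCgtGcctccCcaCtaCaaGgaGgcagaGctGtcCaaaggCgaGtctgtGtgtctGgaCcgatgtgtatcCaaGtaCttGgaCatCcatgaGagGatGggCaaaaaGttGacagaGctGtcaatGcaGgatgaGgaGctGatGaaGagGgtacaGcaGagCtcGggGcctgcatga
mt-Atp8 (chrM:7766-7969, plus strand): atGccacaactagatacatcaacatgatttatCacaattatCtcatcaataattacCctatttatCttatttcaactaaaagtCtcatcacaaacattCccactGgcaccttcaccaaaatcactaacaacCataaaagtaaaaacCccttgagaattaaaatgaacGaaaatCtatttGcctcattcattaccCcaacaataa

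Spearman's rank correlation between GC3 and the difference was -0.30 across these 1831 genes, which share the same 6 libraries and are not independent. It was -0.27 and -0.22 with the ratio of each tet-LIN28B mouse and 0.04 with that of the control. GC of the whole coding sequence gave the same rank correlation of -0.30 with the difference. The inputs leaned the same way, since the tet-LIN28B minus control difference of the inputs had a rank correlation of -0.24 with GC3. The part of the inputs in this relation was not tested. With the mean of the 3 inputs under every IP, where limma called 0, the rank correlation of GC3 with the difference was -0.32. With the own input of each mouse it was -0.33 across 7975 fitted mRNAs below the 50 FPKM limit. The control ratio had one of 0.14 there, so the relation is not particular to abundant transcripts. The motif GGAG, counted on the sense strand of the coding sequence per kilobase, had a rank correlation of 0.04 with the difference. A count of letters says nothing of where LIN28B bound.

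Short transcripts were also excluded more often. Taken by the longest model of a gene, 163 of the 367 shortest (1042 nt or less) were lower than the control, and 58 of the 366 longest (3555 nt or more). The control ratio rose with length as well, from a median of -0.42 to 0.00. The shortest group also had a higher median input, 328 FPKM against 103 FPKM in the longest. Mean input itself had a rank correlation of -0.26 with the control ratio, and the parts of length and input level were not separated. The rank correlation of length with the difference was 0.21 and that with the control ratio 0.36. By the median length of a gene's models the former was 0.05, so this relation hangs on the gene model. FPKM also divide by length, which the ratio within a mouse cancels only where IP and input use the same models. Within each of 5 equal groups by length the rank correlation of GC3 with the difference lay between -0.31 and -0.18. The control had a part in this, since its own ratio rose with GC3 in all but the shortest group, with rank correlations of 0.01, 0.20, 0.23, 0.23 and 0.11 from the shortest group to the longest. Those of the tet-LIN28B ratios ran from -0.26 to -0.12 in mouse 1 and from -0.23 to -0.08 in mouse 2, and were nearest to 0 in the group next to the shortest. Among short mRNAs with high GC3 (the upper of 3 equal groups by GC3 and the lower of 3 by length), 134 of 277 were lower, and among long mRNAs with low GC3 25 of 295. Excluded mRNAs had a median coding length of 504 nt and a median GC3 of 65.7%, against 724.5 nt and 57.5% for the others.

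**Figure D4:**
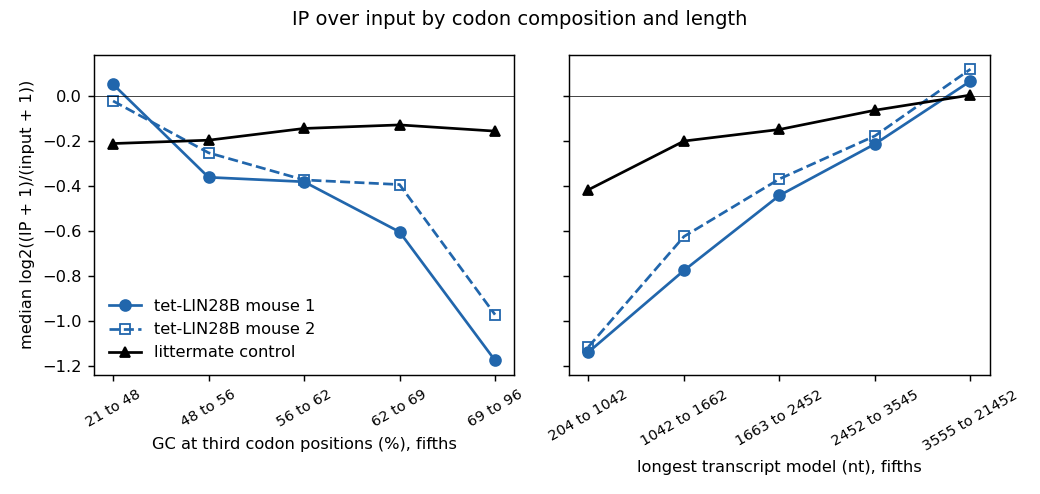
Median log2((IP + 1)/(input + 1)) in each of the 3 mice (vertical) over 5 equal groups of the 1831 mRNAs by GC3 (left) and by longest transcript model (right). With rising GC3 both tet-LIN28B mice fall to -1.18 and -0.97 while the control stays between -0.21 and -0.13, and with rising length all 3 mice rise.

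Mitochondrially encoded mRNAs were the group excluded as a whole. All 12 abundant members of this group, which encode subunits of the respiratory chain and ATP synthase and are translated in the matrix, were lower than the control, with a median difference of -2.95. mt-Atp8 went from 6794 and 6704 FPKM in both tet-LIN28B inputs to 66.1 and 116 FPKM in the IPs. In the control it went from 7295 to 1998 FPKM. mt-Nd3 had 67.2 and 60.8 FPKM in the tet-LIN28B IPs and at 617 FPKM in the control IP, from inputs of 3017, 3286 and 2818 FPKM in the same order. The control IP was thus low in these mRNAs too, with a median ratio of -1.38. Both tet-LIN28B mice lay below the single control for each of the 12, as they did for all 613 lower transcripts. mt-Nd1 had the difference nearest to 0 of the 12, at -1.57 (adjusted p = 0.00804). mt-Rnr2, the large ribosomal RNA of mitochondria, had ratios of -2.96 and -2.87 against -1.47. mt-Rnr1, the small one, was not lower, with ratios of 0.08 and -1.09 against -1.27 (difference 0.76, adjusted p = 0.235), and the mice were far apart. The unprocessed pseudogenes Gm10925, Gm28437 and Gm28661 on chromosome 1 hold no 50-base window that mt-Atp6, mt-Co3 and mt-Co2, in this order, lack. Their own low ratios therefore cannot be told apart from those of the mitochondrial mRNAs, and mt-Co2 with Gm28661 had summed ratios of -4.77 and -4.22 against -1.74.

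Histone mRNAs had a median difference of -1.68 and are the list most hidden by a limit on the IPs. Of 34 histone transcripts 22 were lower, 1 higher and 25 under 50 FPKM in at least 1 tet-LIN28B IP. Replication-dependent histone mRNAs end in a stem-loop rather than a poly(A) tail; the libraries were primed on poly(A), and the part of this in the result was not tested. Hist1h2ap, a histone H2A gene and the most abundant of the list among the excluded, was at 10759.9 and 13503 FPKM in both tet-LIN28B inputs and at 557 and 1156 FPKM in the IPs. The control held 14837 and 9435 FPKM. Of its windows 93.1% occur in other genes, so it stands for a family. Hist1h2ae had ratios of -4.09 and -4.26 against -0.68, and Hist1h3b was listed at 0 and 2.02 FPKM in the tet-LIN28B IPs against 45.6 FPKM in the control IP. H3f3b, a polyadenylated gene of the replacement histone H3.3, was the 1 higher member, at 2303 and 2591 FPKM in the IPs from inputs of 1034 and 1293 FPKM.

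All 11 transcripts of the list of MHC and antigen processing had a difference below 0, as had 1259 of all 2045 transcripts (61.6%). Of 11 transcripts 9 were lower and 0 higher, with a median difference of -1.82. Cd74, the invariant chain that escorts MHC class II, was at 642 and 939 FPKM in both tet-LIN28B inputs and at 40.5 and 123 FPKM in the IPs. The control IP held more than its input, 1478 against 1159 FPKM, and the difference was -3.79 (standard error 0.41, adjusted p = 0.000115). B2m, the light chain of MHC class I, had ratios of -3.30 and -3.10 against -0.82. The class I heavy chains H2-K1 and H2-D1 had differences of -1.94 and -1.82, from control ratios of 0.49 and 0.46. H2-Ob, a class II chaperone chain, had the highest value of the list, -0.38, which did not pass (adjusted p = 0.457).

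Components of the pre-B cell receptor split. Of 32 pre-BCR and B lineage transcripts 18 were lower and 3 higher, 12 were under 50 FPKM in a tet-LIN28B IP, and the median difference was -1.20. Vpreb3, a chaperone of receptor assembly, was at 4209 and 5482 FPKM in both tet-LIN28B inputs and at 212 and 384 FPKM in the IPs. Its control values were 6092 and 3929 FPKM. Cd79b, a signalling chain of the receptor, had ratios of -3.62 and -3.32 against -0.10, and Ighm, the mu heavy chain constant gene, of -3.14 and -2.64 against 0.17. Igll1, the lambda5 part of the surrogate light chain, had ratios of -2.22 and -1.89 against -0.35. Vpreb1, its partner in the surrogate light chain, was higher than the control instead. It was at 3112 and 3364 FPKM in both tet-LIN28B inputs and at 8667 and 7919 FPKM in the IPs, while the control held 3012 and 2737 FPKM. The difference was 1.49 (standard error 0.37, adjusted p = 0.0129), and the 2 partners thus lay on opposite sides of the control in both mice. Vav1, an exchange factor of antigen receptor signalling, had the highest difference of the list, 2.29.

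Cytoskeletal transcripts were low in part. Of 34 actin cytoskeleton transcripts 17 were lower and 1 higher, with a median difference of -0.92, and after centring 10 were lower and 2 higher. Rac2, a small GTPase of blood cells, was at 173 and 212 FPKM in both tet-LIN28B inputs and at 8.19 and 21.1 FPKM in the IPs, against 240.0 and 225 FPKM in the control. Pfn1, which encodes profilin, had ratios of -3.98 and -3.47 against -0.30, and Actg1, gamma actin, of -2.09 and -2.15 against 0.07. Tmsb4x, which encodes the actin-sequestering thymosin beta 4, was among the most abundant excluded transcripts, at 11677 and 13302 FPKM in both tet-LIN28B inputs and 2201 and 1684 FPKM in the IPs. Gmfb, a regulator of actin branching, was the 1 higher member (difference 1.44). Of 9 glycolytic transcripts 2 were lower and 1 higher (median -0.87). Eno1 and Gapdh were the lower ones, with differences of -2.33 and -2.20, and Pgk1 the higher one, at 1.22.

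Lists of the mitochondrion, of transcription and of protein handling held members on both sides. Over all 2045 transcripts 29.98% were lower and 10.6% higher. The lower share was close to this for complexes II to V, import, V-ATPase, ER entry and noncoding RNAs, at 28.6% to 31.0%. Of 53 mitochondrial ribosomal protein transcripts 20 were lower and 4 higher, 21 were under 50 FPKM in a tet-LIN28B IP, and the median difference was -0.63. Mrpl42 was lowest, with ratios of -3.86 and -3.76 against -0.999, and Mrpl12 highest, with 1.41 and 1.64 against -0.04. For complex I 7 of 34 were lower and 9 higher, from Ndufa11 at -2.68 to Ndufa5 at 2.51. For complexes II to V 12 of 42 were lower and 6 higher. Of 17 import transcripts 5 were lower and 4 higher. Timm10b, at -3.38, and Timm10, at 1.85, encode related small chaperones of the intermembrane space. Of 20 transcripts of RNA polymerase II and basal transcription 8 were lower, among them Taf10 (-3.24), and Polr2k was the 1 higher member (2.17). Of 29 ER entry transcripts 9 were lower, down to Krtcap2, an oligosaccharyltransferase subunit, at -3.77, and 2 higher, up to the signal recognition particle protein Srp14 at 1.66. For lysosomal and V-ATPase transcripts 5 of 17 were lower and 1 higher, for redox enzymes 7 of 20 and 2, for ubiquitin and its relatives 5 of 25 and 2, and for cell cycle transcripts 9 of 40 and 5. After each mouse was centred on its median these counts shifted, to 11 lower and 5 higher for mitochondrial ribosomal proteins, 3 and 11 for complex I, 8 and 7 for complexes II to V, 3 and 4 for import, 5 and 2 for RNA polymerase II, 3 and 2 for V-ATPase, 2 and 2 for redox enzymes and 4 and 6 for cell cycle transcripts. Ranges ran from Lamtor5 at -2.86 to Atp6ap1 at 1.18, from Txn2 at -2.30 to Sod1 at 1.60, from Gabarap at -2.13 to Rps27a at 1.37, and from Ccnd2 at -2.61 to Pcna at 1.66. Of 13 snoRNA hosts and other noncoding RNAs 4 were lower and 2 higher, with Epb41l4aos highest at 2.06.

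Ribosomal protein transcripts also held a few deep exclusions. Of 48 transcripts of the 60S subunit 8 were lower and 10 higher, and of 33 of the 40S subunit 6 and 9, with medians of 0.21 and 0.29. After centring 4 and 2 were lower and 10 and 8 higher. Rps29 was at 7556 and 7660 FPKM in both tet-LIN28B inputs and at 816 and 905 FPKM in the IPs, against 7654 and 5894 FPKM in the control (difference -2.77, standard error 0.36, adjusted p = 0.000315). Rpl39 had a difference of -2.73, and Rpl41, which encodes the shortest ribosomal protein, was at 11363 and 11420 FPKM in the inputs and at 3422 and 2893 FPKM in the IPs. Both tet-LIN28B IPs held 50 FPKM or more of these and of all other abundant members of both lists. Rps24 had the highest difference of the 40S list, 1.95.

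Lists of RNA processing, folding, protein turnover and translation factors had positive medians as well. Of 38 hnRNP and SR protein transcripts 8 were higher and 1, Pcbp2 at -0.99, lower (median 0.48). Of 41 snRNP and spliceosome transcripts 12 were higher and 3 lower, from Bud31 at -1.98 to Snrpe, a core protein of snRNPs, at 2.21. For chaperones 7 of 45 were higher and 3 lower, from Ppib at -1.76 to Hsp90aa1 at 2.09, for the proteasome 7 of 37 and 4, from Psmb2 at -2.52 to Psmb1 at 1.53, and for translation factors 7 of 34 and 4, from Eif5a at -2.41 to Eef1b2 at 1.80. After centring 13 chaperones were higher and 0 lower, 9 proteasome transcripts higher and 2 lower, and 12 translation factors higher and 3 lower. Ribosome biogenesis had 1 of 20 in each direction, Fbl at 1.24 and Nop10 at -1.68. Centring each mouse raised the median of all genes fitted by 0.36 and scaling to TPM (which gives each library the same total) lowered it by 0.12. Under centring the medians of complex I, complexes II to V, import, ER entry and cell cycle turned from negative to positive (to 0.29, 0.23, 0.10, 0.01 and 0.20), and under TPM those of ribosome biogenesis and of noncoding RNAs turned to -0.09 and -0.15. The medians of the other 18 lists kept their sign under both scalings and under a pseudocount of 0.1.

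**Figure D5:**
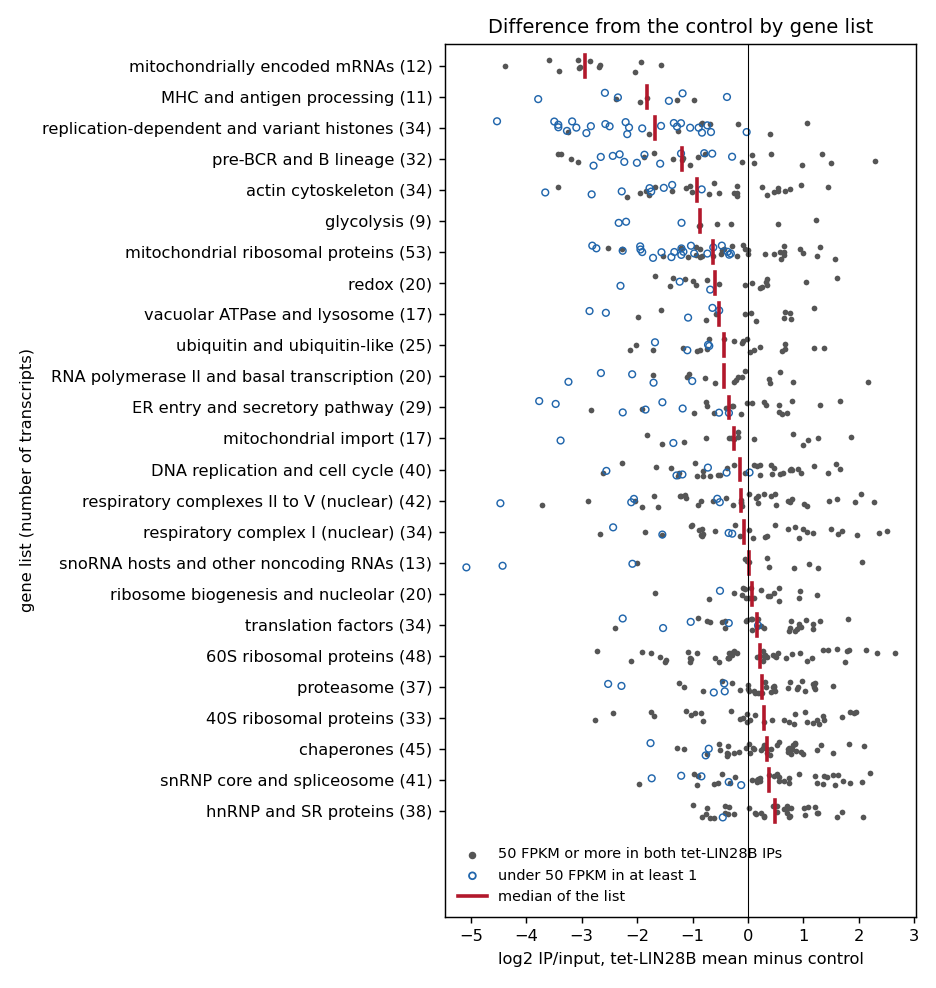
Difference in log2 IP/input (tet-LIN28B mean of 2 mice minus control, horizontal) for each abundant transcript of 25 gene lists (rows), with open circles for transcripts under 50 FPKM in at least 1 tet-LIN28B IP and a red bar for the median. Open circles are most frequent in the histone list (25 of 34) and absent from the 60S, 40S and mitochondrially encoded lists, and the mitochondrially encoded mRNAs and the MHC list lie wholly below 0.

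Markers of other cells were low in part in the LIN28B IPs. Of the 6 myeloid markers among the 2045, 4 were lower than the control. S100a9, a calcium-binding protein of neutrophils and the most abundant of them, was not, at 1819 and 1259 FPKM in the IPs from inputs of 3770.2 and 2355 FPKM, against 1415 from 3335 FPKM in the control (difference 0.26, adjusted p = 0.632). Ctss, a lysosomal protease, had a difference of -0.22 (adjusted p = 0.658, and 0.14 after centring). Tyrobp, an adaptor of myeloid and NK receptors, was at 219 and 174 FPKM in both tet-LIN28B inputs and at 15.5 and 23.01 FPKM in the IPs, against 173 and 87.5 FPKM in the control. Both megakaryocyte markers among the 2045 were lower, with Ppbp at -3.74 and -3.14 against 0.05. Of 8 B progenitor markers 4 were lower and 1 higher. The part of other cells in the exclusion of any list was not tested.

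At the upper end the values were closer together. The 5 highest differences were those of Ndufb1-ps (2.67), Rpl22l1 (2.65), Cops9 (2.55), Ndufa5 (2.51) and Gm33051 (2.37), the last of which overlaps Rpl22l1 on the opposite strand and may hold its reads. Cops9, a subunit of the COP9 signalosome, was at 1451 and 1649 FPKM in both tet-LIN28B inputs and at 11444 and 10358 FPKM in the IPs, against 1511 and 1819 FPKM in the control. Both tet-LIN28B ratios of each of the 5 were 2.01 or more, and the control ratios lay between -0.64 and 0.27. At the limit of 50 FPKM in the lowest input, Nudt16l1 (50 FPKM, difference 0.40) and Rps24-ps3 (50.04 FPKM, 1.84) were just inside, and Cltc (49.97 FPKM, 0.52) and Stx4a (49.95 FPKM, 1.18) just outside.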

How the data were processed

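Each of 2 tet-LIN28B mice and 1 littermate control gave an input and an anti-FLAG IP library, 6 in all (SMART-Seq v4, poly(A)-primed, Nextera XT, no strand). Per the labels, the authors used STAR 2.7.1 and RSEM 1.28 on mm10 and deposited FPKM values. Their gene annotation release: not given in the sources used here. Samples were assigned from their titles and from column names, since the last line of each description names the opposite fraction. Labels give Dox at 0.1 mg/mL and the methods another unit. Per the methods, 10% of the lysate of each mouse was its input, so taking the ratio within a mouse blocks on it (the difference between the tet-LIN28B mice in their inputs had a correlation of 0.37 with that in their IPs, across the 2045 transcripts). No pair of 15 held identical values.

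With limma 3.58.1 (R 4.3.3), log2((IP + 1)/(input + 1)) was fitted on genotype for 11481 genes at 1 FPKM or more in each input, with a trend on mean expression, Benjamini-Hochberg adjustment and a threshold of 0.05. The 3 ratios leave 1 residual degree of freedom, so the spread of a gene comes mostly from all genes together and the single control is taken to vary as the others do. Folds on this scale understate changes of low transcripts. The fit was tested on simulated data, where it called no unchanged gene and missed most of the changed ones. Those data were drawn from the fit's own model of the spread, with the control varying as the others do. They therefore cannot show how the fit fares where that model does not hold. A far smaller share of genes was changed in them than was called here, so neither outcome carries over to these calls. Lists were described by counts and medians.

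GENCODE M21 (GRCm38) supplied coordinates, lengths and sequences and matched 2036 of the 2045 transcripts to 1 model. The coding sequence is the longest complete one of a gene, and some are not reported here. Shared sequence was counted as 50-base windows of annotated transcripts. Spearman's rank correlation was computed with scipy 1.17.1.

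The transcripts, the 25 lists (textbook knowledge) and the tests were chosen with earlier results of these data known. Named genes were the 15 lowest and 5 highest called differences, the 8 excluded and the 8 removed transcripts of highest mean input, the lowest and highest of each list and the 2 genes on each side of the 50 FPKM limit. Cd79b, Ighm, Igll1, Vpreb1, B2m, H2-K1, H2-D1, Hist1h2ae, Pfn1, Actg1, Gapdh, mt-Nd3, Tyrobp, Ppbp, Hmgb2, Snu13, Mpc1, mt-Co3, mt-Rnr1, S100a9 and Ctss are named beside it, a choice made with their values already seen. Alternatives changed the pseudocount, the scaling, the limits, the input, the genes fitted, the trend and the block, and left out each tet-LIN28B mouse.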

Additional observations from a re-analysis of the deposited data

Results flagged for a closer look

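A difference between the tet-LIN28B mice and the control in IP over input, by the limma test of that difference, drew attention to the 613 transcripts with a lower and the 217 with a higher ratio. The groups hold 2 mice and 1 mouse, so no single library could be tested for standing apart from its group.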

How the results depend on the processing

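The count of excluded transcripts ran from 362 to 530 under the pseudocounts, scalings, inputs, fits and restriction to protein-coding genes tried, against 482, and from 520 to 621 with either tet-LIN28B mouse left out. Leaving out a mouse gave a median difference of -0.38 to -0.29 and 463 to 576 transcripts under 50 FPKM in the IP, as values with no test, since no residual degree of freedom was left. A limit of 50 FPKM on the IPs lowered the excluded to 158 and the lower calls to 222 and turned the median difference to 0.0705, which follows from removing transcripts low in the IP. Centring each mouse gave 387 lower calls, all 387 among the 613, and a median of 0.0015. The median was -0.52 under TPM and -0.46 with the mean of the 3 inputs, where limma called 0 lower and 0 higher. Higher calls numbered 138 with a pseudocount of 0.1 and 143 when every gene above 0 in all libraries was fitted. Without the mouse as a replicate block 199 were lower and 42 higher, all 199 among the 613. At 20 FPKM in each input 1061 were lower, 792 excluded and 2137 under the IP limit, and at 100 FPKM 392 were lower and 203 under the IP limit. An IP limit of 20 FPKM removed 232 and one of 100 FPKM removed 1048. Of the named genes only Snu13 and Ctss, which were not called, changed their direction, to 0.10 and 0.14 under centring. Of 98 named genes fitted, 91 lost their call with the mean of the 3 inputs, and the remaining 7 had none to lose. The call was lost by 45 without the replicate block and by 10 when every gene above 0 was fitted. It was lost by 8 each under centring, a pseudocount of 0.1 and the robust fit, and by 2 without the trend. The causes were not tested. The depth of the libraries is unknown, so no value has a counting interval, and values of a few FPKM in the IPs have no known precision.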
